A study of Mus musculus with 38 samples.

Results

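Cxcl12, a secreted chemokine, and its receptors Cxcr4 and Cxcr7 were described in neural stem/progenitor cells (NSPCs) of the mouse subventricular zone (SVZ). The 3 genes were taken by symbol, Cxcr7 being the name that the deposited tables give to Ackr3, out of 25965 genes with RNA values. Their 7 transcription start sites (TSS) were taken out of 72923 TSS windows with ChIP values. The genes were chosen by their RNA and H3K4me3 values in these cells, so those values are given below as a description, and nothing is read from any call on them. The DNA methylation calls played no part in the choice and were tested.

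NSPCs were derived from the SVZ of male C57BL/6J/Babr mice, young adult (3 months) or aged (18 months), and grown as neurospheres with EGF, FGF-basic, B27 and heparin. Each derivation combined tissue from several mice, 3 derivations were made per age, and cells were harvested at the second passage. RNA was sequenced from these 3 + 3 derivations and from 1 young adult (3 months) and 1 aged (18 months) derivation of C57BL/10 mice kept in a different facility. H3K4me3, H3K27me3 and Input ChIP-seq, bisulphite (BS) and oxidative bisulphite (oxBS) sequencing covered 3 C57BL/6J/Babr libraries per age and assay. All cells had been expanded in culture with growth factors, so they stand for dividing NSPCs and not for the tissue they came from, and in these bulk cultures fewer cells with a transcript and less of it per cell cannot be told apart.

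Cxcl12 binds Cxcr4, a receptor that signals through inhibitory G proteins and steers the migration, homing and quiescence of stem cells. Cxcr7 binds the same chemokine with high affinity, recruits beta-arrestin rather than G proteins, and takes Cxcl12 up and degrades it, which shapes the gradient that Cxcr4 reads. In the adult SVZ, Cxcl12 from blood vessels and the ependyma is known to guide NSPCs and neuroblasts that carry Cxcr4.

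RNA libraries held about 17000000 to 41100000 reads, recovered as whole reads from the deposited log2 RPM (RPM being the reads of a gene scaled to a fixed library total). Markers of neural stem/progenitor cells (Nes, Vim, Fabp7 and 7 others) summed to 6963 to 8762 RPM in the C57BL/6J/Babr libraries. Markers of other cell types were low in part: Ptprc had no read in any of the 8 RNA libraries, Cdh5 at most 1, Cldn5 at most 2 and Anpep at most 2. Other markers of those cell types were read in every library, with 155 to 832 reads of Flt1, 39 to 133 of Vwf and 36 to 109 of Kdr (endothelium), 95 to 230 of Csf1r (microglia) and 10 to 31 of Col1a1 (fibroblasts). Foxj1, a transcription factor of ependymal cells, had 1077 to 3599 reads, whereas the ependymal markers Tmem212 had at most 1, Ccdc153 9 to 32 and Rsph1 28 to 127. Of the microglial markers, Aif1 and Tmem119 had at most 1 read, Itgam at most 5 and P2ry12 6 to 26. The 4 ependymal markers with RNA values summed to 31.5 to 103.1 RPM in young adult and 34.7 to 95.1 in aged libraries, and the 6 microglial ones to 5.85 to 7.55 and 5.25 to 6.36. Most of the ependymal sum was Foxj1 (mean log2 RPM 5.80, the next being Rsph1 at 1.02). Most of the microglial sum was Csf1r (2.48, the next being P2ry12 at -1.17). The summed level of 7 endothelial markers, 4 of them tested, was 14.1 to 25.1 RPM in young adult and 13.8 to 22.5 in aged libraries, and that of 7 pericyte and fibroblast markers, 2 of them tested, was 0.926 to 4.56 and 1.23 to 2.31. The 7 astrocyte markers summed to 1599 to 1857 RPM in young adult and 1411 to 1458 in aged libraries. These did not overlap, which was not set against sums of other genes. Most of that sum was Aldh1l1 (mean log2 RPM 10.0, the next being Slc1a2 at 7.18). The 8 oligodendrocyte lineage markers summed to 1169 to 1353 RPM in young adult and 1307 to 1405 in aged libraries, with overlap. Whether any of these cell types has a part in the values of the 3 genes was not tested. In these and the other marker lists 0 genes were called by limma, with or without replicate number as a block. Over all genes tested the shares called were 0% and 0.498%, so 0 calls in short lists carry little weight.

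The 3 promoters differ in their content of CpG, the dinucleotide that carries DNA methylation, and are shown here because ChIP and methylation values lie on them. Below are the 250 bases upstream of the RefSeq start of each gene, 5′ to 3′ on the strand of the gene in GRCm38.p6, with every CpG in capitals. The Cxcl12 stretch is chr6:117168285-117168534 on the plus strand, that of Cxcr4 chr1:128592300-128592549 on the minus strand, and that of Cxcr7 (Ackr3 in RefSeq) chr1:90203730-90203979 on the plus strand.
Cxcl12: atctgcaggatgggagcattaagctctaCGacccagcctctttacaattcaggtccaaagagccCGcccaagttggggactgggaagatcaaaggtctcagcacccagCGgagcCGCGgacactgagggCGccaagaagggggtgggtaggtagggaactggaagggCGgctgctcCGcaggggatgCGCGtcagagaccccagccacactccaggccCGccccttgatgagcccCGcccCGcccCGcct
Cxcr4: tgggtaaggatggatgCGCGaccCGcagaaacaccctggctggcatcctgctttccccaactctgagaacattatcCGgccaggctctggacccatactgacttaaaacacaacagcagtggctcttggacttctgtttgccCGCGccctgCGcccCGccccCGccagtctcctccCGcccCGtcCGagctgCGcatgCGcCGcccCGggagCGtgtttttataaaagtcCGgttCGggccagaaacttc
Cxcr7: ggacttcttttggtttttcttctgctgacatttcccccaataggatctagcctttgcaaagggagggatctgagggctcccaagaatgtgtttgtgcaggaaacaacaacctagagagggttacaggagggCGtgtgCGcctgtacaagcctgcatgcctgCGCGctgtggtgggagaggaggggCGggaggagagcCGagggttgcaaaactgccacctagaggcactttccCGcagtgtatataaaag
The stretches hold 14 CpG (Cxcl12), 19 (Cxcr4) and 7 (Cxcr7), against a median of 6 over the 32851 promoters of the same length in RefSeq. Over 1000 bp centred on the TSS the numbers were 76, 43 and 23, and the ratio of observed to expected CpG was 0.782, 0.625 and 0.361. Cxcr7 thus had the start site poorest in CpG by either measure. Cxcl12 was the richest over 1000 bp but Cxcr4 in the 250 bases, and over 5000 bp both had 178 CpG. The letters GGGCGG (the GC box), read on both strands, were found in all 3 stretches and in 32.7% of all promoters. The letters TATAAA, which make up a TATA box, on either strand were found in 12.4% of all promoters, in Cxcr4 (gene strand, first base at position -30 from the start) and in Cxcr7 (position -8), and not in Cxcl12. These motifs were chosen after the sequences were seen, and a match is no evidence of a site in use.

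Cxcl12 (ENSMUSG00000061353; chr6:117168535-117181367, plus strand), the ligand, was almost without RNA in cultured NSPCs. It had 3, 6 and 3 reads in the young adult libraries 1, 2 and 3, and 7, 9 and 16 in the aged libraries. On the log2 RPM scale these are levels of -3.77, -1.50 and -3.12 in young adult and -2.51, -1.62 and -1.30 in aged NSPCs. The second young adult library lay above both the first and the second aged library, so the ages overlapped. The difference in mean log2 RPM, aged minus young adult, was 0.99 (SE 0.67, limma, n = 3 and 3), and by replicate number the differences were 1.26, -0.12 and 1.82. Summed over the 3 libraries of an age, 12 and 32 reads give a ratio of RPM of 2.09 with an exact 95% binomial interval from 1.05 to 4.46, which covers counting error only and not the spread between derivations, over which the ages overlapped. In C57BL/10 NSPCs 2 and 4 reads give a ratio of 2.21 with an interval from 0.317 to 24.4, so no difference could be read at this depth. With a mean log2 RPM of -2.31 Cxcl12 stayed below the minimum of -2 set for the RNA test, and its SE comes from a fit without that minimum.

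Cxcr4 (ENSMUSG00000045382; chr1:128588199-128592293, minus strand), the signalling receptor, was the most abundant of the 3 per length, and its libraries of both ages overlapped over a wide spread. Its level was 3.84, 2.72 and 2.60 log2 RPM in the young adult libraries (586, 112 and 158 reads), a mean of 3.05 ± 0.68 (SD, n = 3). In the aged libraries it was 3.77, 3.34 and 2.50 (546, 280 and 224 reads), a mean of 3.20 ± 0.64 (SD, n = 3). The lowest of the 6 libraries was an aged one and the highest a young adult one. The difference in log2 RPM was 0.15 (SE 0.39, limma), with -0.06, 0.61 and -0.09 by replicate number, and it took the opposite sign, down to -0.13, when any of young adult replicates 2 and 3 or aged replicate 1 was left out. In C57BL/10 Cxcr4 was at 2.59 log2 RPM in the young adult and 2.25 in the aged library, a difference of -0.34 with 1 library per age.

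Cxcr7 (ENSMUSG00000044337; chr1:90203980-90216751, plus strand), the scavenging receptor, was higher in each of the aged libraries than in any of the young adult ones. It had 192, 61 and 70 reads in young adult and 439, 163 and 196 in aged libraries, or 2.23, 1.85 and 1.42 against 3.46, 2.56 and 2.31 log2 RPM. The lowest aged library, replicate 3, stood only 0.09 above the highest young adult library, replicate 1, and libraries with the same number were further apart, with differences of 1.23, 0.71 and 0.89. The difference in mean log2 RPM was 0.94, a fold of 1.92, with an SE of 0.32 and, with replicate number as a block, of 0.14 (limma). In C57BL/10 it went from 1.63 to 3.00 log2 RPM, a fold of 2.59 between single libraries. Of the 14858 genes whose mean level reached -2 log2 RPM, 32 had a larger increase in mean log2 RPM than Cxcr7 and 1921 a larger one than Cxcr4.

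The calls of the present fits over all genes give the scale for these values. The study, by its own limma moderated t test, did report differentially expressed genes between these ages at a false discovery rate under 0.05. Why the present fit without a block differs from it was not tested. At an adjusted p under 0.05, limma called 0 of the 14858 genes (0%), with 258 at an unadjusted p under 0.05, edgeR called 0 (254 at an unadjusted p under 0.05) and DESeq2 4 (0.0269%). Of the 3 genes described here, 2 were above the minimum level and 0 were called by limma. When replicate number entered the fit as a block, limma called 74 of the 14858 genes (0.498%), with 1229 at an unadjusted p under 0.05. Of the genes called 30 were higher in aged NSPCs (0.202%), Cxcr7 among them, and Cxcr4 was not called. All 3 aged libraries lay above all 3 young adult ones for 467 genes (3.14%), of which Cxcr7 was one. Since the RNA chose Cxcr7, nothing is read from its place among them. Without the block the p-values rest on the spread between derivations of an age. With it they rest on the spread of the differences between libraries of the same number, whose pairing is not stated in the sources used here.

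**Figure D1:**
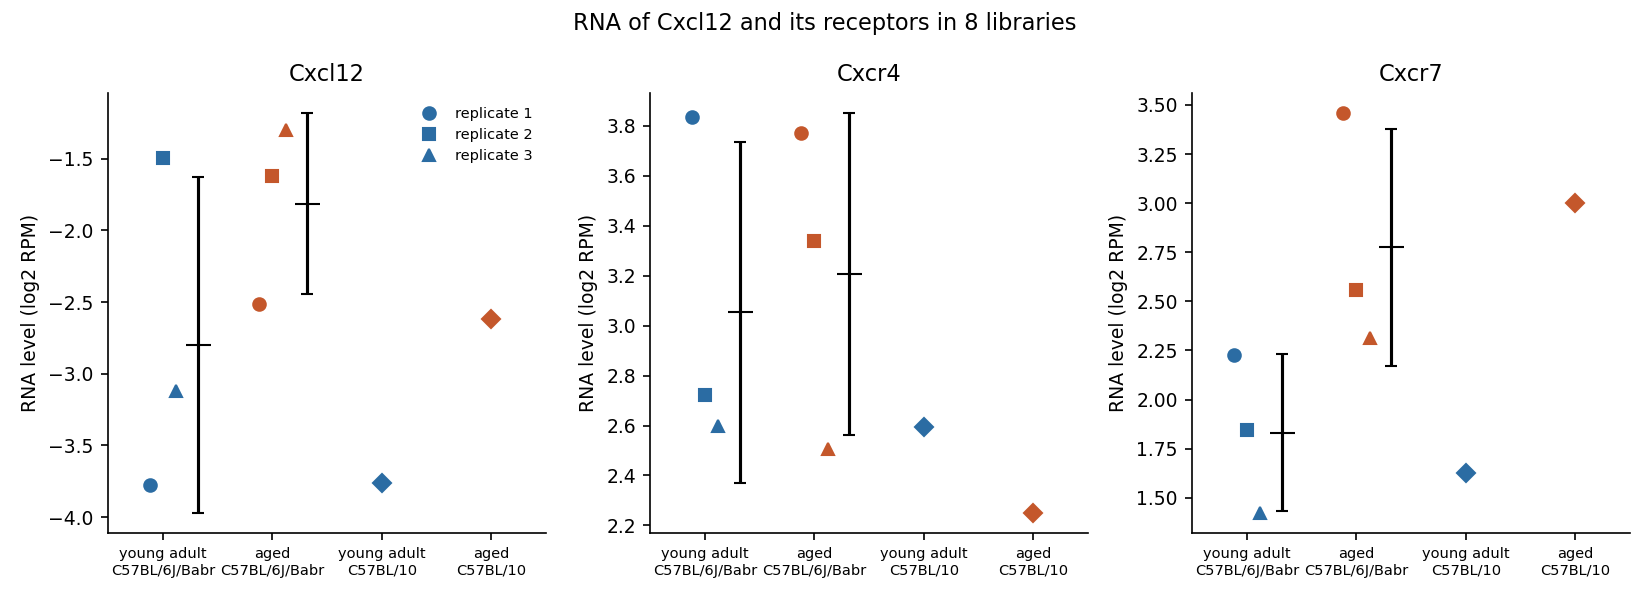
RNA level (log2 RPM, a separate scale for each gene) of Cxcl12, Cxcr4 and Cxcr7 in 8 libraries, with marker shape for replicate number in C57BL/6J/Babr, diamonds for the single C57BL/10 libraries, and black bars for mean ± SD of 3 libraries. The aged points of Cxcr7 lie at 2.31 to 3.46, above all young adult points, whereas the ages overlap for Cxcl12 and Cxcr4.

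Levels can be compared between genes only per length, for which the union of annotated exons was used (8.18 kb for Cxcl12, 1.81 kb for Cxcr4 and 3.35 kb for Cxcr7). On this scale of log2 RPM per kb Cxcr4 had levels of 2.20 ± 0.68 in young adult and 2.35 ± 0.64 in aged cultures (SD, n = 3), and Cxcr7 had 0.09 ± 0.40 and 1.03 ± 0.60. Cxcl12 was at -5.83 ± 1.17 and -4.84 ± 0.63. Among genes above the minimum level, whose median was 2.07, the mean of the 6 libraries put Cxcr4 at percentile 53.9, Cxcr7 at 27 and Cxcl12 at 0.0889. Cxcr4 thus lay near the middle of the genes above the minimum. Cxcl12 was itself under that minimum, which largely fixes its low place among them. It also lay below the median of all genes with a length, -0.86. The order Cxcr4, Cxcr7, Cxcl12 held within each of the 8 libraries. Across libraries the levels of Cxcr4 (1.40 to 2.98) and Cxcr7 (-0.32 to 1.71) overlapped, those of Cxcl12 (-6.81 to -4.33) and Cxcr7 did not.

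Because both receptors bind 1 ligand, their ratio was taken within each library. Per kb, Cxcr7 RNA was 0.177, 0.294 and 0.239 of Cxcr4 RNA in the young adult libraries 1, 2 and 3. In the aged libraries the ratio was 0.434, 0.314 and 0.473. The lowest aged ratio stood just above the highest young adult ratio, both in replicate 2, so the ages did not overlap, but the second derivations hardly differed. The mean log2 ratio was -2.11 ± 0.37 in young adult and -1.32 ± 0.31 in aged cultures (SD, n = 3), a difference of 0.79. In C57BL/10 the ratio went from 0.277 to 0.909, so in the aged C57BL/10 library both receptors were nearly level. The ratio is built from the values that chose Cxcr7, was not tested, and was not set against ratios of other genes, so nothing is read from the lack of overlap.

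**Figure D2:**
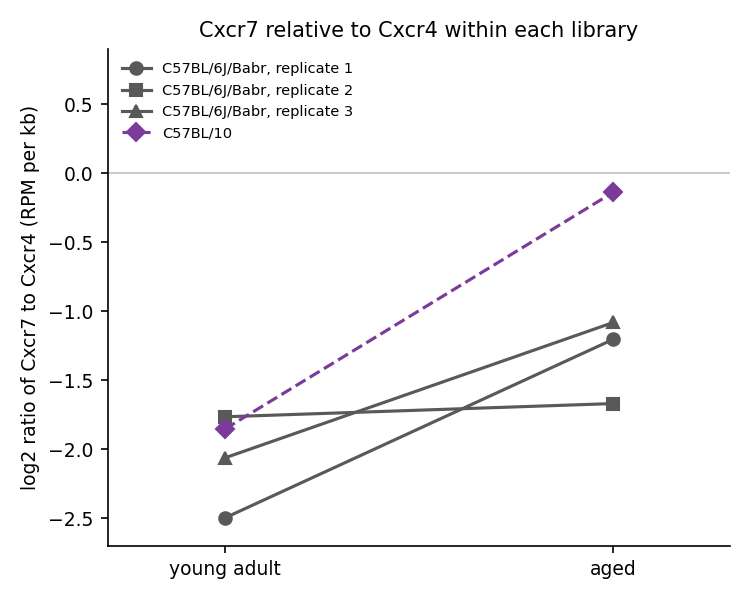
Log2 ratio of Cxcr7 to Cxcr4 RNA (RPM per kb, 0 for equal levels) in young adult and aged libraries, with solid lines joining C57BL/6J/Babr libraries of the same replicate number and a dashed line joining the C57BL/10 libraries. The aged C57BL/6J/Babr ratios lie between -1.67 and -1.08, the young adult ones between -2.50 and -1.77.

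The genes with the pattern most like that of each member over the 8 RNA libraries were sought by the root mean square (RMS) difference of centred log2 RPM. For Cxcr7, whose own RMS deviation was 0.645, these were Ets1 (RMS difference 0.273), an ETS-family transcription factor, Chrna4 (0.282), a nicotinic acetylcholine receptor subunit, and BC024582 (0.288). Ets1 was at 3.62 log2 RPM in young adult and 4.10 in aged C57BL/6J/Babr NSPCs, with a difference of 0.49 there and 1.21 in C57BL/10. For Cxcr4, with an RMS deviation of 0.570, they were Fam135b (0.178), Gstt1 (0.203), a glutathione transferase, and Cep55 (0.215), a protein of the final step of cell division, whose differences between ages were -0.02, -0.08 and 0.10. For Cxcl12, with an RMS deviation of 0.924, the closest were Tspan11 (0.478), a tetraspanin, Vat1l (0.538) and Cacna2d3 (0.555), a calcium channel subunit, a poor likeness for a gene of so few reads. The 8 libraries share age, strain and replicate number as sources of such likeness.

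Other chemokines and their receptors were mostly silent in NSPCs. Of 35 other ligands listed, 12 passed the minimum level and 8 had no read in any library, and of 21 other receptors 2 passed and 6 had no read. The 2 receptors of that list that passed were Ccrl1 (the name in the files for Ackr4, another scavenging receptor), at 0.79 ± 0.15 log2 RPM in young adult and 0.72 ± 0.38 in aged cultures, and Cxcr6, the receptor of Cxcl16, at -1.76 ± 0.29 and -1.95 ± 0.78 (SD, n = 3). Ccr10, a receptor of Ccl28, was the next by log2 RPM and lay below the minimum with 53 reads over the 8 libraries. Cxcl11, the other chemokine that Cxcr7 binds, had 1 read over the 8 libraries.

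The ligands with the highest log2 RPM, not scaled by length, were Cx3cl1 (fractalkine), at 5.88 ± 0.35 log2 RPM in young adult and 5.98 ± 0.23 in aged NSPCs, Cxcl10, an interferon-induced chemokine, at 4.29 ± 0.12 and 3.79 ± 0.38, and Cxcl14 at 2.88 ± 0.39 and 2.95 ± 0.37. By limma 0 of the 12 ligands and 0 of the 2 receptors were called (0% of all genes). With the replicate block 2 ligands were called (0.498% of all genes), both lower in aged NSPCs. Ccl2, which attracts monocytes, went from 3.21 ± 0.87 to 2.51 ± 1.07 log2 RPM, a difference of -0.70 (SE 0.57, limma adjusted p of 1, and 0.0319 with the block). Ccl28, a chemokine of mucosal tissues, went from 1.65 ± 0.53 to 0.71 ± 0.36, a difference of -0.94 (SE 0.31, limma adjusted p of 1, and 0.0471 with the block). In C57BL/10 these differences were -1.48 for Ccl2 and -0.66 for Ccl28. The median difference of the 12 ligands was -0.36, with 4 of 12 higher in aged NSPCs, against a median of 0.0015 over all genes tested.

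The machinery downstream of the receptors was expressed at both ages. Of 32 listed signalling genes 31 passed the minimum level and 0 were called by limma, with or without the block (0% and 0.498% of all genes). Their median difference was 0.06, against 0.0015 over all genes tested, and 22 of 31 were higher in aged NSPCs. The highest by log2 RPM were Gnai2, an inhibitory G protein alpha subunit through which Cxcr4 signals, at 8.45 ± 0.24 log2 RPM in young adult and 8.41 ± 0.12 in aged NSPCs, Gnb1, a G protein beta subunit, at 8.37 ± 0.06 and 8.41 ± 0.09, and the GTPase Cdc42 at 8.05 ± 0.03 and 8.01 ± 0.01. Of the beta-arrestins that Cxcr7 recruits, Arrb1 went from 4.72 ± 0.14 to 4.88 ± 0.28 and Arrb2 from 3.44 ± 0.16 to 3.60 ± 0.02, a difference of 0.16 in either gene with an SE of 0.15 and 0.12. Listed besides were 14 further genes, for proteins that bind or cut Cxcl12 or share its receptors and for the transcription factor Hif1a. Of these 9 passed and 0 were called, with or without the block (0% and 0.498% of all genes), at a median difference of 0.01. The highest of these by log2 RPM were Sdc4, a heparan sulfate proteoglycan, at 7.99 ± 0.46 and 7.99 ± 0.42, Mmp14, a membrane-bound metalloprotease, at 6.85 ± 0.10 and 6.55 ± 0.22, and Hmgb1, which forms a complex with Cxcl12, at 6.50 ± 0.16 and 6.52 ± 0.11. Gpr182, an atypical chemokine receptor that binds Cxcl12, was at -0.75 ± 0.73 and -0.51 ± 0.60. Mif, which binds both receptors, was at 6.12 ± 0.19 and 5.98 ± 0.29, and Adm (adrenomedullin), which Cxcr7 scavenges, at 4.55 ± 0.35 and 4.68 ± 0.26.

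**Figure D3:**
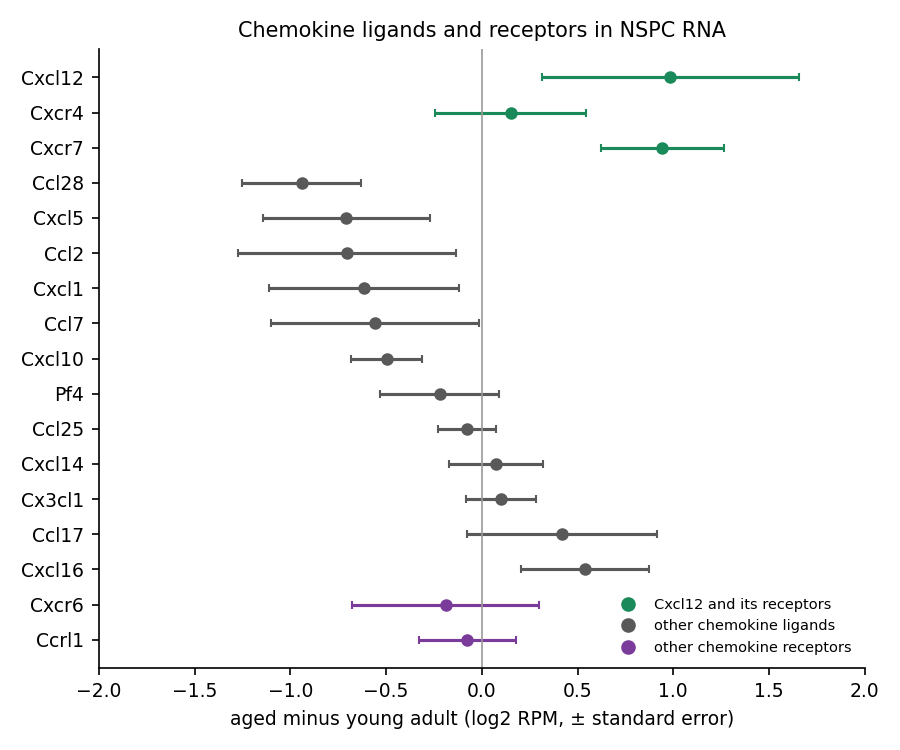
Difference in log2 RPM between aged and young adult C57BL/6J/Babr NSPCs (points, with bars for the standard error of limma) for Cxcl12, Cxcr4 and Cxcr7 and for the 12 other ligands and 2 other receptors above the minimum level. Cxcr7 and Cxcl12 lie near 0.94 and 0.99, the other genes shown between -0.94 and 0.54.

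The histone marks were then compared at the TSS windows of 5000 bp, for which the authors deposited 1 value per age, the mean of 3 libraries on the log2 RPM scale. There is thus no spread, and no test was possible. H3K4me3 marks active or poised promoters and H3K27me3 is laid down by Polycomb at silent ones. At Cxcr7 (Cxcr7-001, chr1:90201480-90206480) the H3K4me3 level went from 4.09 in young adult to 4.87 in aged NSPCs, a fold of 1.72, and from percentile 52.7 to 58.7 of all windows, while Input went from 1.57 to 1.45. Its H3K27me3 levels were 2.17 and 2.16. The median window above a level of 1 itself gained 0.21 in H3K4me3, and with both ages brought to the same distribution the difference at Cxcr7 was 0.60 in place of 0.78. Windows past 1.5-fold made up 0.341% of those above that level, 0.0802% higher in aged NSPCs, and both start sites of Cxcr7 were among them by the values that chose the gene.

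The Cxcr4 window (Cxcr4-001, chr1:128589790-128594790) had H3K4me3 levels of 6.30 and 6.50 log2 RPM, at percentiles 96.9 and 96.5, the highest of the 3 genes as its RNA was. Its H3K27me3 levels were 1.99 and 1.75, and its Input levels 0.96 and 1.33. The difference in H3K4me3 of 0.20 was that of the median window, and it was -0.17 after subtraction of Input and -0.026 after quantile normalization.

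Cxcl12 (Cxcl12-001, chr6:117166035-117171035) carried both marks. Its H3K4me3 levels were 5.12 and 5.34 log2 RPM, at percentiles 67.1 and 67.2, beside RNA at the bottom of the genes described. Its H3K27me3 levels were 4.28 and 4.21, at percentiles 97.6 and 97.2, which lay 3.66 and 3.05 above Input. At Cxcr4 H3K27me3 lay 1.03 and 0.42 above Input and at Cxcr7 0.61 and 0.71, so Cxcl12 was the member with the most of this mark at either age. The receptors too lay above most windows in H3K27me3, at percentiles 86.3 and 83.3 (Cxcr4) and 88.1 and 87.8 (Cxcr7). Their Input, however, lay at percentiles 50.9 and 87.9 (Cxcr4) and 98.3 and 94.5 (Cxcr7). At Cxcr7 H3K27me3 thus ranked below Input at both ages, and at Cxcr4 in aged NSPCs. Over all windows the young adult medians were 0.09 for H3K27me3 and 0.96 for Input. The H3K4me3 difference at Cxcl12 of 0.21 turned into -0.33 after subtraction of Input, which was itself 0.62 in young adult and 1.16 in aged NSPCs, and into 0.00063 after quantile normalization. The H3K27me3 differences of -0.07 at Cxcl12 and -0.24 at Cxcr4 became -0.61 at each, past 1.5-fold, after the same subtraction, and that at Cxcr7 went from -0.01 to 0.11. For H3K27me3, 4.27% of the windows above a level of 1 were past 1.5-fold without subtraction, and 0 of the 7 windows of these genes, and 8.89% of the windows were past it after subtraction. The other start sites, Cxcr7-002, Cxcr4-002, Cxcl12-002 and Cxcl12-004, lie within 42 bp of these and their windows share nearly all reads, with H3K4me3 levels within 0.0015 log2 RPM.

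**Figure D4:**
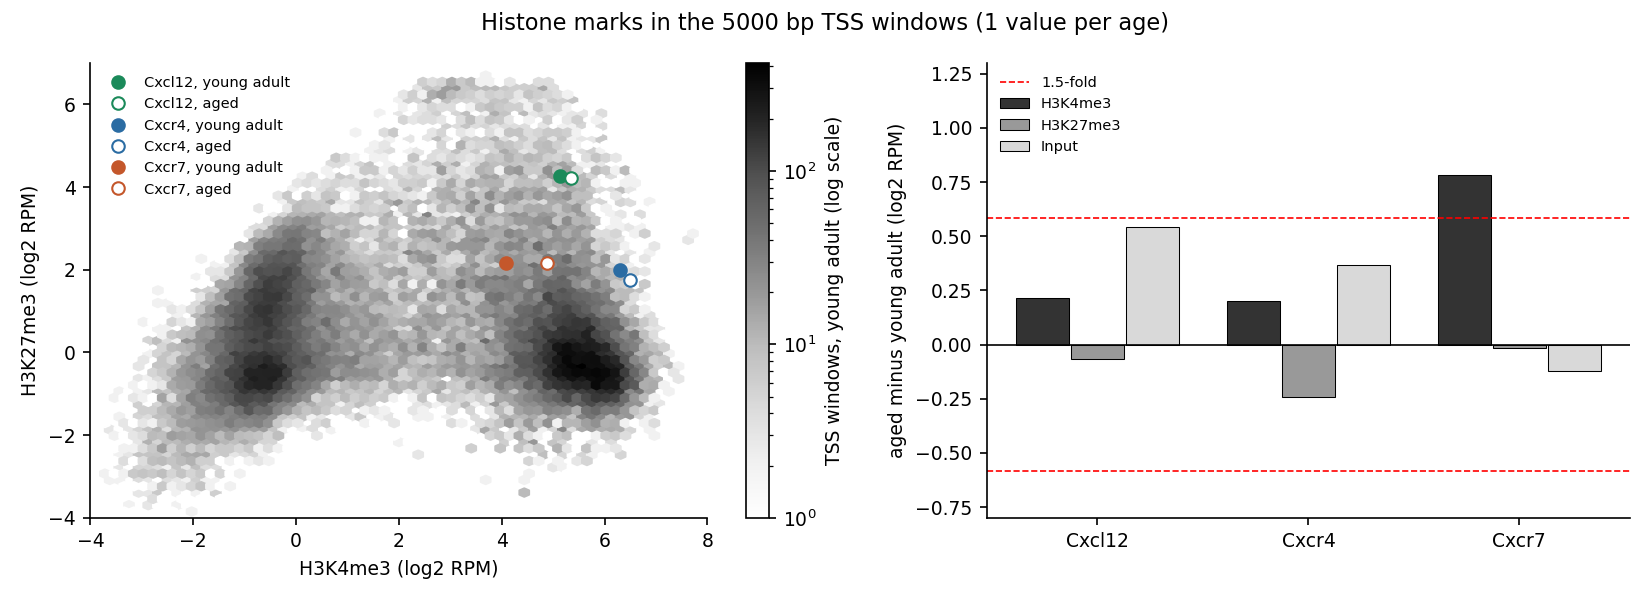
Left, H3K27me3 against H3K4me3 (log2 RPM, mean of 3 libraries deposited by the authors) in 5000 bp TSS windows, with grey shade for the number of windows in young adult NSPCs and circles for the 3 genes (filled, young adult; open, aged). Right, difference between ages for H3K4me3, H3K27me3 and Input with dashed lines at 1.5-fold: only H3K4me3 at Cxcr7 crosses them, at 0.78, and Input differs by 0.54 at Cxcl12.

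DNA methylation, which had no part in the choice of the genes, was compared in the same windows. BS calls read 5-methylcytosine (5mC) and 5-hydroxymethylcytosine together and oxBS calls read 5mC alone. The libraries held 13616283 (aged oxBS replicate 3) to 30400033 calls, and percentages were computed from summed calls over a window in each library. No window passed the test, those of the 3 genes included: 0 of 69710 oxBS windows were called by the quasi-binomial model (0%, 3709 at an unadjusted p under 0.05) and 0 of 71037 BS windows (0%, 3463 at an unadjusted p under 0.05), the same with the replicate block.

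The Cxcr7 window was the most methylated of the 3. It had 5mC levels of 45.1% (37 of 82 calls), 41.0% (34 of 83) and 42.0% (34 of 81) in the young adult libraries, a mean of 42.7% ± 2.2 (SD, n = 3). The aged libraries had 39.1% (50 of 128), 40.2% (43 of 107) and 60.0% (30 of 50), a mean of 46.4% ± 11.8 (SD, n = 3). The first and second aged libraries lay below all young adult libraries and the third, from the shallowest oxBS library, above them, with a 95% Wilson interval from 46.2% to 72.4%. The difference was 3.73 percentage points (exact permutation p = 1) and -3.06 without aged replicate 3. By BS the levels were 45.9%, 44.9% and 36.2% in young adult and 33.9%, 47.7% and 39.4% in aged libraries, a difference of -2.02 percentage points (exact permutation p = 0.8) that was 1.21 without aged replicate 1. Among all oxBS windows the young adult level was at percentile 52.8.

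Taken over its whole length, the Cxcr4 window was low in 5mC in each library, though not at its ends. The young adult libraries had 11.5% (29 of 253 calls), 11.6% (21 of 181) and 14.6% (32 of 219), and the aged libraries 10.5% (22 of 210), 8.52% (19 of 223) and 12.6% (20 of 159). The ages overlapped, with means of 12.6% ± 1.8 and 10.5% ± 2.0 (SD, n = 3) and a difference of -2.03 percentage points (exact permutation p = 0.3). By BS the means were 15.2% ± 2.4 and 11.6% ± 3.5, with an exact permutation p of 0.3. Within 1000 bp either side of the TSS the 5mC means were 2.47% ± 1.48 and 2.30% ± 1.77.

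Cxcl12 had the lowest 5mC level in young adult NSPCs, at percentile 5.61 of all windows, with the widest relative spread. The libraries had 3.79% (8 of 211 calls), 15.0% (25 of 167) and 8.61% (13 of 151) in young adult and 11.7% (21 of 179), 12.3% (19 of 155) and 16.5% (20 of 121) in aged NSPCs. The aged libraries all lay above young adult libraries 1 and 3, and library 2 lay among them. The means were 9.12% ± 5.61 and 13.5% ± 2.6 (SD, n = 3), a difference of 4.38 percentage points (exact permutation p = 0.3). By BS the levels were 6.22%, 13.2% and 11.6% in young adult and 17.1%, 18.3% and 13.3% in aged libraries, without overlap by a margin of 0.013 percentage points. This difference of 5.86 percentage points had the smallest p that 3 against 3 allow, 0.1 (exact permutation test), an unadjusted p of 0.0308 and an adjusted p of 1 (quasi-binomial model). Cxcl12 was the 1 of the 3 genes whose BS libraries did not overlap between ages, as 9.6% of all BS windows did, and 0 of the 3 had oxBS libraries that did not overlap, against 10.2%. Within 1000 bp either side of the TSS the BS difference at Cxcl12 was -0.99 percentage points (8.33% ± 4.18 and 7.34% ± 2.68), opposite in sign to that of the whole window, and the 5mC means by oxBS were 3.12% ± 2.57 and 7.20% ± 3.60 (exact permutation p = 0.2).

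Around the TSS the 3 genes had different profiles, taken in bins of 500 bp with the calls of an age summed. Cxcr4 was nearly free of 5mC from 500 bp upstream to 1500 bp downstream of its TSS, with 0 of 430 calls methylated in young adult NSPCs, which allows a share of up to 0.698% (here and below 3 counts of the total, a rule apart from the Wilson interval), and 5 of 389 in aged NSPCs. By BS each 500 bp bin of this stretch held 0 or 1 methylated calls at either age, of 56 to 148 calls. At Cxcr4 5mC reached 92.3% (24 of 26) and 72.7% (8 of 11) at 2000 to 2500 bp upstream. At Cxcl12, 0 of 244 calls in young adult (up to 1.23%) and 5 of 244 in aged NSPCs were methylated over the 1000 bp downstream of the TSS, and 5mC was 57.9% (11 of 19) and 85.7% (18 of 21) at 1500 to 2000 bp downstream. BS calls at Cxcl12 were methylated in 0 of 231 and 1 of 188 from 0 to 500 bp downstream. From 500 to 1000 bp they were methylated in 2 of 113 and 2 of 127. At Cxcr7 5mC was uneven, with 31.8% (14 of 44) and 15.9% (7 of 44) in the 500 bp upstream of the TSS and 15.4% (4 of 26) and 15.2% (7 of 46) in the 500 bp downstream. The aged values rest in large part on aged replicate 3, without which they were 10.3% (4 of 39) upstream and 5.71% (2 of 35) downstream. It was 38.5% (5 of 13) and 78.6% (11 of 14) from 500 to 1000 bp downstream, and 5.26% (1 of 19) and 0% (0 of 27, which allows up to 11.1%) from 1000 to 1500 bp.

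Of the bins with calls in all 6 libraries, the libraries of both ages did not overlap in 2 of 28 by oxBS (6.11% of such bins over all TSS windows) and in 4 of 27 by BS (6.85%), and in 0 bins by both assays. The 2 oxBS bins, described after their values were seen, held few calls. At Cxcl12, 1000 to 1500 bp upstream, 5mC was 0% in the 3 young adult libraries (0 of 37 calls, which allows up to 8.11%) and 17.6%, 12.5% and 25.0% in the aged ones (7 of 37), whereas the aged BS libraries had 0%, 31.3% and 14.3%. At Cxcr7, 500 to 1000 bp upstream, 5mC was 75.0%, 45.0% and 54.5% in young adult (27 of 47 calls) and 100%, 80.0% and 100% in aged libraries (30 of 33). The BS libraries of that Cxcr7 bin overlapped, with 71.0%, 72.0% and 88.9% in young adult and 85.2%, 64.7% and 100% in aged NSPCs. The 4 BS bins, also described after their values were seen, went both ways. Aged BS levels were higher at Cxcl12, 2000 to 2500 bp upstream (32.4% and 50.0%), and at Cxcr7, 1500 to 2000 bp downstream (0 of 9 and 8 of 23 calls). They were lower at Cxcr4, 1500 to 2000 bp upstream (94.3% and 82.9%) and 2000 to 2500 bp downstream (61.5% and 32.0%). In the printed promoter stretches themselves, oxBS calls were methylated in 1 of 55 (young adult) and 0 of 18 (aged) at Cxcl12, 0 of 55 and 1 of 100 at Cxcr4, and 1 of 13 and 0 of 23 at Cxcr7. The counts of 0 allow a share of up to 16.7% at Cxcl12 (aged), 5.45% at Cxcr4 (young adult) and 13.0% at Cxcr7 (aged).

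**Figure D5:**
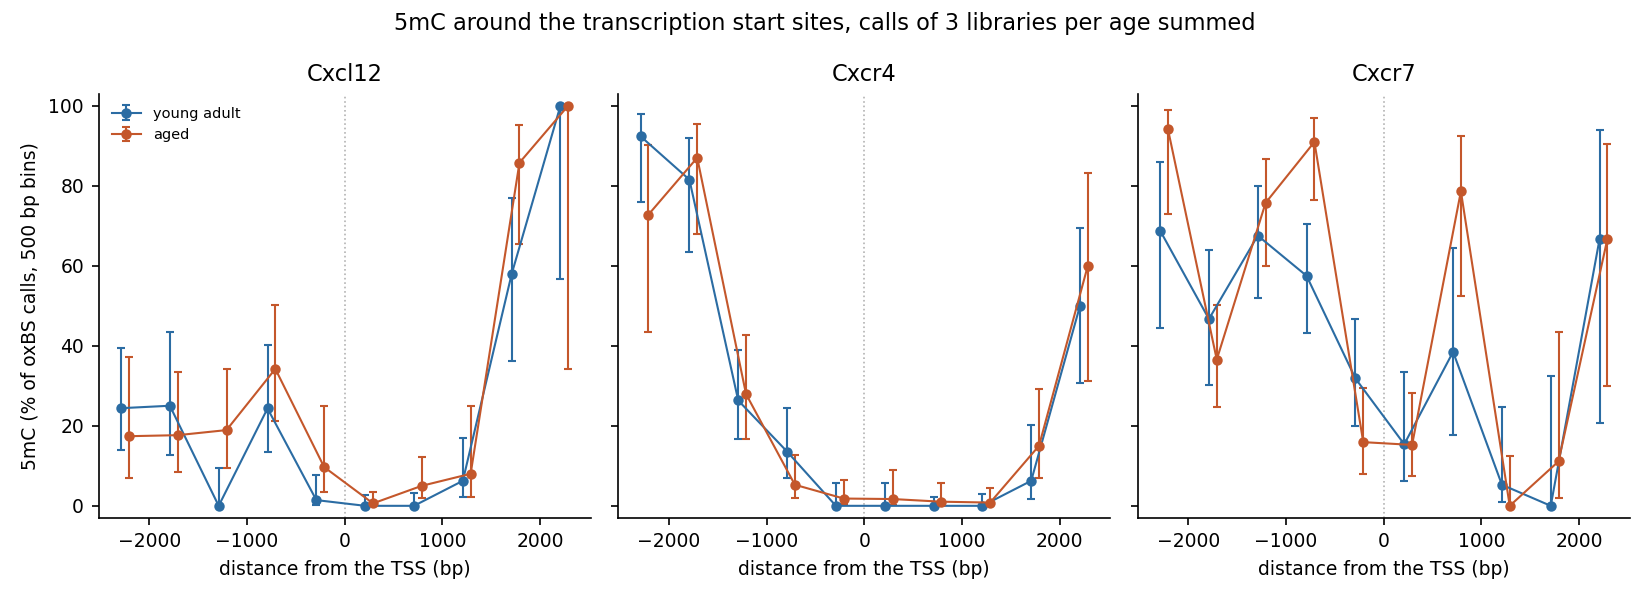
5mC level (percent of oxBS calls, 3 libraries of an age summed) in 500 bp bins by distance from the TSS, negative upstream, with bars for the 95% Wilson interval, which covers counting error only. Cxcr4 and Cxcl12 have broad stretches near 0 around the TSS, whereas Cxcr7 is uneven, with 15.4% and 15.2% (5.71% without aged replicate 3) just downstream of it and 5.26% and 0% at 1000 to 1500 bp.

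The bodies of the genes beyond these windows were highly methylated. Mean 5mC was 64.8% ± 4.5 in young adult and 69.0% ± 3.2 in aged cultures for Cxcl12, 81.5% ± 4.5 and 82.2% ± 4.9 for Cxcr4, and 75.8% ± 4.3 and 73.7% ± 5.5 for Cxcr7 (SD, n = 3). The exact permutation p-values were 0.4, 0.9 and 0.6. The Cxcr4 values rest on only 15 to 31 calls per library, since little of this short gene lies outside its window.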

How the data were processed

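The authors deposited RNA as log2 RPM for 25965 genes in 8 libraries. Values between 1 and 1000 reads all gave whole reads within 0.02, and genes without reads stand at 0.9 reads. The log2 RPM of ChIP were deposited by the authors as 1 mean of 3 libraries per age in TSS windows of 5000 bp. Per library, the authors deposited counts of methylated and unmethylated calls at CpG positions (GRCm38), beside a percent column not used here. The submitters' processing notes name STAR 2.3.0, Bowtie2 2.2.5, Bismark 0.12.5 and Trim Galore 0.3.7 and 0.4. The RNA kit does not mark strand, and how reads were counted is not stated in the sources used here. In GENCODE vM21 0 other genes overlap the 3 genes.

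The members and gene lists were chosen with earlier results of these data known. Both ages were fitted with limma 3.58.1 (mean-variance trend, Benjamini-Hochberg, threshold 0.05) over the 14858 genes averaging -2 log2 RPM or more in the 6 C57BL/6J/Babr libraries. Alternatives were edgeR 4.0.16 and DESeq2 1.42.0 on the whole reads (R 4.3.3). Windows holding 10 calls or more in each library were fitted with a quasi-binomial model with dispersion moderated across windows. A call needed an adjusted p below 0.05 and 10 percentage points between ages. The exact permutation tests over libraries were two-sided. Exon lengths came from GENCODE vM21 and promoter sequences from RefSeq (GRCm38.p6), all 3 matching the genome. Intervals and limits cover counting error only. Both models were tested on simulated data.

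Named are the members, every list gene past the threshold and otherwise the 3 of each list with the highest mean log2 RPM, and the 3 genes most like each member. Cxcl11, Adm, Mif, Gpr182, Hif1a, Arrb1 and Arrb2 were added for their known link to Cxcl12 or its receptors, after their values were seen. Libraries of both ages share replicate numbers, but whether libraries of 1 number share a derivation day is not stated in the sources used here. Deviations from the mean of an age correlated by 0.730, 0.201 and 0.830 between RNA libraries of 1 number over 13280 genes. Libraries of unlike number were not compared, so these values do not settle whether the libraries are paired. In oxBS and BS windows the correlations were -0.0036 to 0.0334. Counting error in percentages from few calls can by itself keep such correlations low, so they do not settle pairing either.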

Additional observations from a re-analysis of the deposited data

How the results depend on the processing

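With edgeR, DESeq2, 2 reads added and quantile normalization, the RNA differences of Cxcl12, Cxcr4 and Cxcr7 moved by less than the spread between replicates. That spread was 0.94, 0.66 and 0.51 log2 RPM, near the difference at Cxcl12 and above that at Cxcr4, so it is a loose measure. The replicate block and the removal of the minimum level cannot change these differences of means. With 1 library left out the differences ran from 0.50 to 1.63, -0.13 to 0.54 and 0.60 to 1.17. Pairing the libraries in a replicate block raised the RNA calls over all genes from 0 to 74, Cxcr7 among them (its RNA chose the gene, so nothing is read from that call), and those on the lists of other chemokine ligands from 0 to 2, and changed no call on the other lists. No alternative called a methylation difference. Leaving out 1 library gave 5mC differences from -3.06 to 7.41 percentage points at Cxcr7, -3.06 to -1.01 at Cxcr4 and 1.72 to 7.31 at Cxcl12. The BS differences ran from -5.69 to 1.21, -5.31 to -1.81 and 3.80 to 7.35, and within 1000 bp of the TSS that of Cxcl12 was -0.99. In oxBS and BS the block called none, and it cannot change the differences, which are taken from the means of the libraries. Input subtraction turned the H3K4me3 differences of Cxcl12 and Cxcr4 to -0.33 and -0.17 and the H3K27me3 difference of Cxcr7 to 0.11, and took those of Cxcl12 and Cxcr4 to -0.61 and -0.61. Quantile normalization turned H3K4me3 at Cxcr4 to -0.026 and took that at Cxcl12 to 0.00063. With a threshold of 2-fold H3K4me3 at Cxcr7, at 0.78, was not past it. The cause was not tested. Depth limits Cxcl12 RNA (2 to 16 reads) and Cxcr7 methylation (50 to 128 oxBS calls).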
